A study of Homo sapiens with 14 samples.

Results

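The comparison was of lenalidomide with DMSO in SH-EP cells carrying n-Myc SPARK-ON, and it rests on 6 of the 14 samples of the series: 3 libraries labelled lenalidomide and 3 labelled DMSO, chosen by those labels. SH-EP is an established human neuroblastoma cell line of the adherent, mesenchymal kind. The study asked how the transcriptome changes when n-Myc forms condensates. According to the submitters, the SPARK-ON cells are one clone that holds n-Myc below the level at which it separates into droplets, and the compound is used to bring on that separation while the protein concentration stays the same. A second line carrying n-Myc without SPARK-ON, also in the SH-EP background, received the same 2 agents to show what lenalidomide does on its own, and 5 of its libraries were used here for that purpose. Both groups of the SPARK-ON comparison therefore carry the same construct in the same clone and differ in the agent, lenalidomide or its solvent DMSO. The labels give neither a dose nor a time that can be read without guessing, and no measure of condensates is in the files used here. They number the replicates without saying whether these came from separate cultures, so the p-values measure the spread between these libraries, which may be technical.

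The n-Myc protein, the product of MYCN, is a transcription factor that pairs with MAX and binds E-box sequences in DNA. It is amplified in aggressive neuroblastoma, and MYC-family factors are known for driving genes of ribosome assembly, nucleotide and polyamine synthesis, translation and protein folding, and for lowering transcripts of matrix, adhesion and growth-arrest genes. Phase separation is the process by which proteins with disordered regions gather into droplets, and in SPARK-ON a drug brings the tagged protein together. Lenalidomide binds cereblon (CRBN), the substrate receptor of a ubiquitin ligase, and is known for the degradation of zinc-finger proteins such as IKZF1 and ZNF692 in other cells.

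The libraries held 6614671 to 19244198 counted reads. Lenalidomide replicate 3 was the shallow one, with 6614671 reads against 14647340 to 19244198 in the other 5, and it stood apart on the first principal component (33.3% of the variance), at 39.2 where the others lay between −11.1 and −4.06. Its mitochondrially encoded share of reads was 2.84%, the highest of the range that began at 2.47%. Counts for most gene lists are given below with and without it. For many lists, leaving out lenalidomide replicate 1 or DMSO replicate 1 lost more calls. A level of 3 reads corresponded to 0.156 to 0.454 CPM, the unit used for levels throughout, in which counts are divided by library size in units of 1000000 reads after scaling by the trimmed mean of M values (TMM). Of 9 markers of mesenchymal neuroblastoma cells, 8 were expressed highly enough to test, with a summed level of 1537 to 1591 CPM with DMSO and 1602 to 1742 CPM with lenalidomide. Of 10 adrenergic neuroblastoma markers, 7 stayed under 1 CPM in every library and 5, including ISL1, had no read at all, with summed levels of 9.93 to 13.4 CPM with DMSO and 11.8 to 15.2 CPM with lenalidomide. Of 20 markers of other cell types (blood, endothelial, epithelial, liver, muscle, pigment, glial, neuronal and islet cells), 16 stayed under 1 CPM in every library and 6 had no read. Their summed level was 10.3 to 12.6 CPM with DMSO and 14.2 to 16.95 CPM with lenalidomide, ranges that did not overlap, and none of the 4 that could be tested passed. Among the untested, EPCAM, an epithelial adhesion molecule, was at 0.0621 to 0.274 CPM with DMSO and 0.499 to 2.12 CPM with lenalidomide. The part of these markers in the results below was not tested.

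Among the genes called, more rose than fell with lenalidomide, and changes were larger among those that rose. Genes of the extracellular matrix, its proteases, adhesion and axon guidance, and of NF-kappaB and growth-arrest signalling were among those higher with lenalidomide. Genes of ribosome assembly, nucleotide and polyamine synthesis, translation and protein folding were among those lower, by small amounts. Of 14652 genes tested with edgeR's quasi-likelihood test, 263 were higher (1.79%) and 118 lower (0.805%) at a Benjamini-Hochberg adjusted p under 0.05, the threshold meant wherever a gene is said to have risen or fallen. The median log2 change was 0.31 over the genes that rose and −0.19 over those that fell, against 0.0006 over all genes tested. Changes past 0.5 on the log2 scale numbered 60 upward and 3 downward. The imbalance was smaller at an unadjusted edgeR p under 0.05, where 1107 genes were higher and 1001 lower. Of the genes called, 372 were protein coding. In 246 of the 263 and 113 of the 118, the lowest library of one group lay above the highest of the other. Over all genes tested, 9.55% were higher and 8.97% lower in every lenalidomide library. Genes that fell were the more abundant ones: their median mean level was 152 CPM, against 49.9 CPM for the genes that rose and 23.8 CPM for all. Small changes pass the test more easily at high levels, where the SE is smaller. It was 0.035 for HSPD1 at a mean of 1947 CPM and 0.17 for KCNJ2 at 7.63 CPM. In bulk RNA, a change in how many cells of a kind are present and a change in RNA per cell cannot be told apart. By library size alone in place of TMM, 301 genes were higher and 84 lower. Without lenalidomide replicate 3, 232 genes were higher and 116 lower, and 278 of the 381 were called again.

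**Figure D1:**
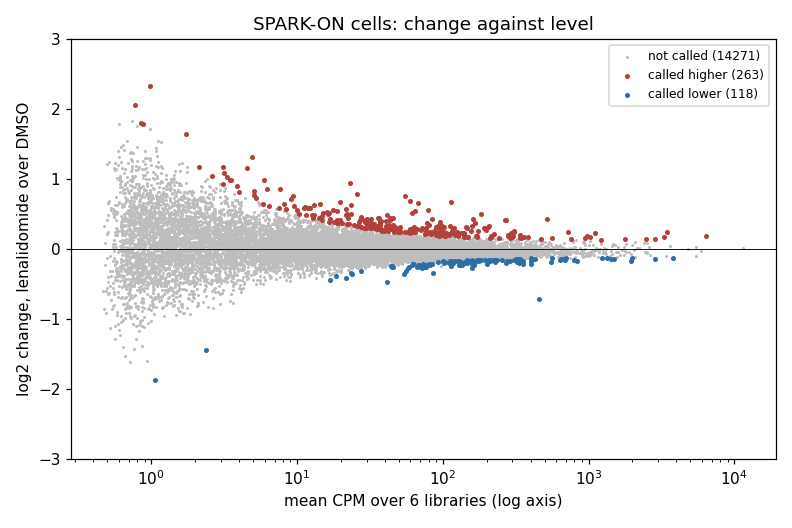
Each point is 1 of 14652 genes, with its mean level over the 6 SPARK-ON libraries in CPM on a logarithmic axis and its log2 change with lenalidomide over DMSO on the other axis. The 263 genes called higher (red) reach 2.32 and the 118 called lower (blue) hug the zero line at high levels, with 3 past −0.5.

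The clearest single gene was DIO2, which encodes the type of iodothyronine deiodinase that activates thyroid hormone. DIO2 stood at 88.2, 83.9 and 91.3 CPM with DMSO and at 132, 144 and 142 CPM with lenalidomide. All 3 lenalidomide libraries were well above all 3 DMSO libraries, and the log2 change of 0.66 (SE 0.052, edgeR adjusted p = 1.2e-15) was a 1.58-fold rise. Separate groups were a condition for naming genes by size or p-value, so the lack of overlap adds no support for those. SERINC2, a serine incorporator of the plasma membrane, had 42.7, 42.1 and 39.4 CPM with DMSO and 72.3, 71.1 and 64.8 CPM with lenalidomide, again with no overlap (log2 0.76, SE 0.067, edgeR adjusted p = 1.3e-13). STRA6, the receptor for retinol-binding protein, was at 7.26, 7.05 and 6.47 CPM with DMSO and at 11.7, 11.3 and 10.7 CPM with lenalidomide (log2 0.71, SE 0.15). KRT81, a hair keratin, went from 446, 428 and 460 CPM to 589, 649 and 544 CPM (log2 0.42, SE 0.043). Each of these 4 genes passed the test in all 6 fits that left out 1 library. FAT2, an atypical cadherin, and the antisense transcript IGFL2-AS1 also passed in all 6, with log2 changes of 0.75 and 0.98. FBXO2, SPNS3 and ROM1 rose by 0.83, 0.77 and 0.73 on the log2 scale at mean levels near the minimum for naming, and passed in 3, 2 and 1 of the 6 fits, with adjusted p up to 0.103, 0.226 and 0.312. Reads of DIO2 and its antisense transcript DIO2-AS1 overlap in part and no source used here gives the strand setting of the counting.

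Part of the matrix genes rose. Over the 3 lists of matrix proteins, matricellular modulators and matrix proteases, 23 of 68 tested genes rose, none fell, and 59 had a positive change, with a median log2 change of 0.14, beside 1.79% higher and 50.2% with a positive change over all genes tested. All lists here were chosen with earlier results of these data known, so an excess over all genes may be partly built in. The same shares, with 0.805% lower, are to be set beside every list count below, and were not matched for level. Without 1 library, 13 (without DMSO replicate 1) to 21 of the 68 rose (15 without lenalidomide replicate 1, 21 without lenalidomide replicate 3), and none fell. Of the 25 matrix proteins tested, 5 rose. FN1, fibronectin, which links cells to collagen through integrins, was at 134, 129 and 123 CPM with DMSO and 158, 160 and 162 CPM with lenalidomide (log2 0.31, SE 0.048, edgeR adjusted p = 5.9e-06). COL5A1, a chain of the collagen that starts fibrils, was at 283, 289 and 278 CPM and then 341, 321 and 342 CPM (log2 0.24, SE 0.042). Neither gene's groups overlapped, and both passed in all 6 fits without 1 library. The 3 chains of collagen VI, the beaded-filament collagen around cells, rose as well: COL6A3 by 0.36, COL6A1 by 0.18 and COL6A2 by 0.17 on the log2 scale. They passed in 4, 3 and 1 of the 6 fits, with adjusted p up to 0.116, 0.103 and 0.189. COL6A2 was the one lost without lenalidomide replicate 3, which left 4 of the 25 called. Leaving out lenalidomide replicate 1 left 2.

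Among 22 matricellular and secreted modulators tested, 9 rose and none fell, and 9 also rose without lenalidomide replicate 3. The fewest, 4, rose without DMSO replicate 1. THBS1, thrombospondin, which binds matrix and activates TGF-beta, had 236, 232 and 235 CPM with DMSO and 313, 317 and 306 CPM with lenalidomide (log2 0.42, SE 0.042, edgeR adjusted p = 1.5e-11). The spread within each group was a small part of the gap between them. DKK1, a secreted Wnt inhibitor, moved from 55.5, 47.4 and 53.8 CPM to 78.9, 74.6 and 74.0 CPM (log2 0.54, SE 0.064, edgeR adjusted p = 4.4e-09). SPP1, osteopontin, moved from 90.8, 78.4 and 80.4 CPM to 103, 109 and 115 CPM (log2 0.38, SE 0.057), also with no overlap. TGFBI, a matrix protein induced by TGF-beta, rose by 0.22, and the growth-factor-like matrix proteins CCN2 and CCN1 by 0.28 and 0.27. DKK3, TNC and IGFBP4, a secreted protein that binds insulin-like growth factors, rose by 0.20, 0.15 and 0.16, and each passed in 2 of the 6 fits without 1 library, with adjusted p up to 0.183, 0.130 and 0.250. CCN2 and CCN1 passed in 4, with adjusted p up to 0.135 and 0.0612, both without lenalidomide replicate 2.

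Of 21 genes of the plasminogen system and matrix proteases tested, 9 rose and none fell (8 without lenalidomide replicate 3). The fewest, 6, rose without DMSO replicate 1. PLAU, the urokinase that converts plasminogen to plasmin, was at 48.8, 52.6 and 52.3 CPM with DMSO and 74.2, 73.4 and 70.1 CPM with lenalidomide (log2 0.51, SE 0.064, edgeR adjusted p = 1.9e-08). All 3 lenalidomide libraries were above all 3 DMSO libraries. SERPINE2, a serpin that inhibits urokinase and thrombin, rose by 0.25 (SE 0.046). CPA4, a carboxypeptidase, had 44.4, 49.5 and 44.6 CPM with DMSO and 73.8, 80.0 and 66.6 CPM with lenalidomide, the largest change of the 9 (log2 0.69, SE 0.067). TIMP3, a tissue inhibitor of metalloproteinases, rose by 0.64 (SE 0.12), the crosslinking enzyme LOXL2 by 0.22, the membrane proteases ADAM19 and ADAM12 by 0.24 and 0.17, and the lysosomal protease CTSB by 0.16. The last 4 of these were lost in at least 1 of the 6 fits, with adjusted p up to 0.112 for LOXL2, 0.0717 for ADAM19, 0.158 for ADAM12 and 0.0646 for CTSB.

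Among 27 adhesion receptors tested, 4 rose and none fell (3 without lenalidomide replicate 3, 2 without lenalidomide replicate 1). L1CAM, a neural adhesion molecule that guides axons and is made by several tumours, had 17.002, 17.2 and 13.6 CPM with DMSO and 29.8, 31.1 and 30.6 CPM with lenalidomide. Every lenalidomide library was far above every DMSO library (log2 0.94, SE 0.10, edgeR adjusted p = 9.8e-11), a 1.92-fold rise. ITGA3, a laminin-binding integrin, was at 653, 652 and 669 CPM and then 798, 799 and 741 CPM (log2 0.25, SE 0.039). ITGB8, the integrin that activates TGF-beta, rose by 0.24 and CDH11, a mesenchymal cadherin, by 0.48; they passed in 3 and 1 of the 6 fits, with adjusted p up to 0.0886 and 0.277.

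Of 31 axon guidance genes tested, 7 rose and none fell, and 25 had a positive change. SLIT2, a secreted repellent, was at 280, 283 and 276 CPM with DMSO and 332, 334 and 331 CPM with lenalidomide (log2 0.25, SE 0.041). SEMA3C, a secreted semaphorin, was at 135, 128 and 134 CPM and then 156, 164 and 166 CPM (log2 0.29, SE 0.048). NRP2, a semaphorin receptor, was at 272, 277 and 269 CPM and then 313, 322 and 322 CPM (log2 0.23, SE 0.042). In all 3 the groups were separate, and all 3 passed in every fit without 1 library. SEMA3B, another semaphorin, rose by 1.16 (SE 0.23) at low levels, from 3.10, 3.15 and 2.53 CPM to 7.05, 7.83 and 3.63 CPM. Lenalidomide replicate 3 was the lowest of its group there, and leaving out lenalidomide replicate 2 gave an adjusted p of 0.0525. EPHA2, PLXND1 and SEMA3A rose by 0.19, 0.17 and 0.29, and passed in 3, 1 and 1 of the 6 fits, with adjusted p up to 0.195, 0.338 and 0.417. Without lenalidomide replicate 3, 5 of the 31 rose, and without DMSO replicate 1, 4 rose.

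Of 23 NF-kappaB targets and cytokines tested, 6 rose, none fell and 21 had a positive change (median log2 0.27). NFKB2, a subunit of the non-canonical NF-kappaB pathway, was at 81.3, 89.0 and 91.3 CPM with DMSO and 107, 111 and 110 CPM with lenalidomide (log2 0.33, SE 0.055, edgeR adjusted p = 3.1e-05). IL11, a cytokine of the IL6 family, was at 12.97, 17.5 and 15.5 CPM and then 23.1, 27.5 and 21.49 CPM (log2 0.67, SE 0.11, edgeR adjusted p = 2.6e-05). Both were separated between the groups. TNFAIP3, the ubiquitin-editing brake on NF-kappaB, rose by 0.51 (SE 0.11) and TNFAIP2 by 0.25. The inhibitor NFKBIE rose by 0.34 with lenalidomide replicate 3 inside the DMSO range (22.2 against 21.2 to 22.8 CPM), and CSF1, the macrophage growth factor, rose by 0.19. NFKBIE passed in 1 of the 6 fits and CSF1 in none, with adjusted p up to 0.484 and 0.204, and TNFAIP3 was lost without lenalidomide replicate 1 (adjusted p = 0.0910). Without lenalidomide replicate 3, 5 of the 23 rose, and without lenalidomide replicate 1, 3 rose.

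Of 28 targets of TGF-beta and YAP tested, 9 rose and none fell (10 without lenalidomide replicate 3, 4 without DMSO replicate 1). Besides TGFBI, CCN1 and CCN2, they included AMOTL2, which tethers YAP, with 78.9, 78.0 and 88.5 CPM with DMSO and 103, 106 and 94.9 CPM with lenalidomide (log2 0.32, SE 0.057), and CRIM1, which binds BMP ligands (log2 0.23, SE 0.048). PMEPA1, a brake on TGF-beta signalling, rose by 0.26, AJUBA by 0.21 and the receptor kinase AXL by 0.16, and these passed in 4, 2 and 2 of the 6 fits, with adjusted p up to 0.135, 0.212 and 0.149. Among 10 complement genes tested, C3, the central component of the cascade, rose from 57.0, 49.6 and 52.4 CPM to 86.7, 81.7 and 81.1 CPM (log2 0.65, SE 0.063, edgeR adjusted p = 2.2e-12). C1QBP, a mitochondrial matrix protein first known as a binder of a complement component, fell by 0.15, with an adjusted p of 0.131 without DMSO replicate 1. Leaving out lenalidomide replicate 3, 3 complement genes rose and 0 fell.

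Growth-arrest genes were among those that rose, while the cell cycle list held no call. Of 31 growth-arrest and p53 target genes tested, 5 rose and none fell, and 5 also rose without lenalidomide replicate 3. The fewest, 3, rose without lenalidomide replicate 1 and without DMSO replicate 1. CDKN1A, the p21 inhibitor of cyclin-dependent kinases, was at 40.3, 35.0 and 40.2 CPM with DMSO and 52.9, 53.8 and 49.3 CPM with lenalidomide (log2 0.44, SE 0.073, edgeR adjusted p = 3.0e-05). PLK2, a polo-like kinase induced by p53 and by serum, was at 136, 140 and 140 CPM and then 187, 193 and 174.5 CPM (log2 0.42, SE 0.047, edgeR adjusted p = 3.4e-10). Neither overlapped between the groups. NDRG1, a stress-responsive gene known to be repressed by MYC-family factors, rose by 0.36 (SE 0.059), and the DNA-damage genes GADD45A and GADD45B by 0.34 and 0.25, each of the latter in 3 of the 6 fits without 1 library (adjusted p up to 0.0670 and 0.226). Of 39 cell cycle and DNA replication genes tested, none was called by edgeR, 31 had a negative change and the median log2 change was −0.03. CCNB2, CCNB1 and MCM4 had the smallest p-values there, with log2 changes of −0.14, −0.11 and −0.10 and adjusted p of 0.141, 0.155 and 0.180.

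Of 19 FOXO targets and protein degradation genes tested, 4 rose and none fell, with or without lenalidomide replicate 3. The fewest, 1, rose without DMSO replicate 1. FBXO32, a muscle-atrophy ubiquitin ligase under FOXO control, was at 236, 214 and 242 CPM with DMSO and 305, 295 and 323 CPM with lenalidomide, with no overlap (log2 0.41, SE 0.045, edgeR adjusted p = 1.7e-10). The autophagy genes GABARAPL1 and SQSTM1 rose by 0.29 and 0.15 and the mTOR inhibitor DDIT4 by 0.19, passing in 4, 4 and 2 of the 6 fits with adjusted p up to 0.0934, 0.154 and 0.296. Among 20 MAP kinase feedback genes, DUSP10, a phosphatase of stress kinases, had 66.0, 67.9 and 57.6 CPM with DMSO and 89.7, 101 and 90.35 CPM with lenalidomide (log2 0.56, SE 0.062, edgeR adjusted p = 2.3e-10), and EPHA2 was the only other one called. Among 20 immediate early factors, FOSL2, an AP-1 subunit, rose by 0.32 (SE 0.053) and PLK2 was the other call, while JUNB had a log2 change of 0.23 with overlapping groups (adjusted p = 0.0998). Of 28 hypoxia and glycolysis genes, ADM, the peptide adrenomedullin, rose by 0.41 (SE 0.075), PFKFB4 by 0.43 and NDRG1 as above. PFKFB4 had an adjusted p of 0.129 without lenalidomide replicate 2, and its exons overlap those of UCN2. The MAP kinase, immediate early and hypoxia lists each held 3 genes that rose without lenalidomide replicate 3.

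Of 23 drug and amino acid transporters tested, 3 rose, none fell and 13 had a negative change. The 3 were all ATP-binding cassette transporters. ABCC3, an exporter of conjugated organic anions, was at 152, 152 and 153 CPM with DMSO and 215, 233 and 196 CPM with lenalidomide (log2 0.50, SE 0.048, edgeR adjusted p = 1.7e-12). ABCG2, a multidrug exporter, was at 4.53, 4.51 and 4.10 CPM and then 7.80, 7.58 and 8.63 CPM (log2 0.86, SE 0.19). At these low levels it passed in all 6 fits without 1 library. The cholesterol exporter ABCA1 rose by 0.27 and passed in 2 of the 6 (adjusted p up to 0.209). Of 20 ion channels, KCNJ2, an inward rectifier of potassium, rose from 5.46, 5.06 and 5.68 CPM to 9.99, 9.60 and 9.99 CPM (log2 0.86, SE 0.17). KCNN4, a calcium-activated potassium channel, rose by 0.48 and passed in 3 of the 6 fits (adjusted p up to 0.148). Of 11 annexins, membrane-binding proteins that respond to calcium, ANXA8 rose from 19.1, 18.5 and 19.1 CPM to 35.4, 29.4 and 33.6 CPM (log2 0.79, SE 0.095). It has near-identical copies, among them ANXA8L1 (log2 0.48, adjusted p = 0.0694), between which the counting can divide reads, so its value is uncertain. In the fit without lenalidomide replicate 3, 3 transporters rose and 1 fell, and 2 channels and 1 annexin rose.

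**Figure D2:**
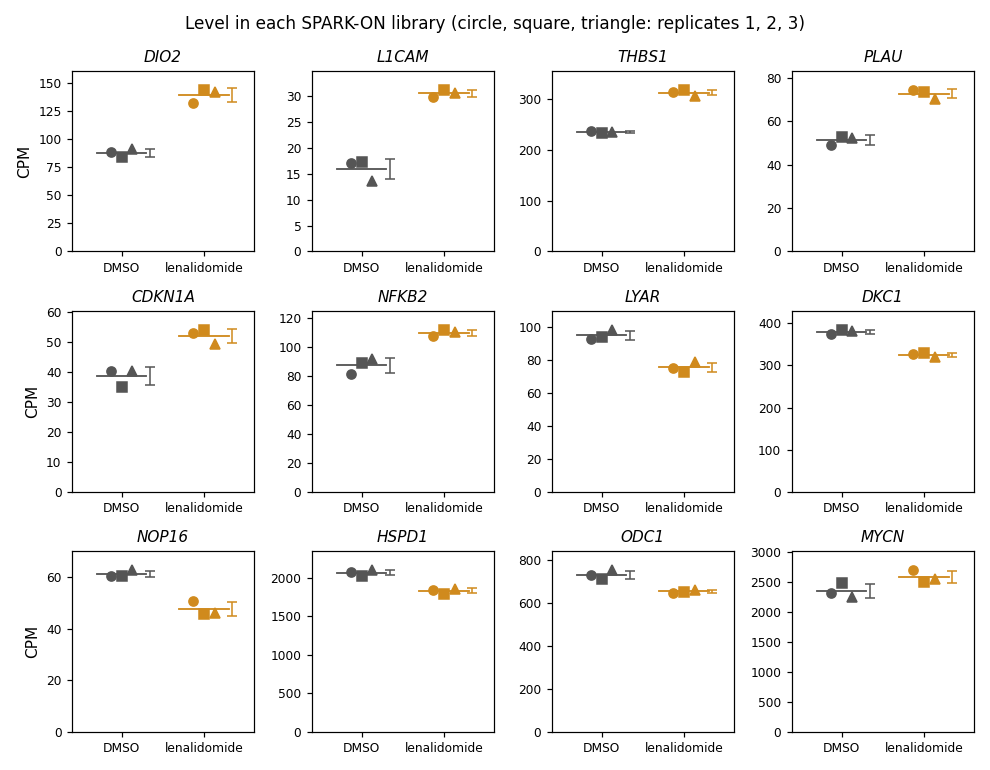
Each panel shows 1 gene, with the level in CPM in the 3 DMSO libraries (grey) and the 3 lenalidomide libraries (orange). Circles, squares and triangles are replicates 1, 2 and 3, horizontal lines are group means and brackets are SD (n = 3). The axes start at 0, so that the rise of L1CAM from 13.6 to 17.2 CPM to 29.8 to 31.1 CPM can be set beside the small fall of HSPD1 from 2027 to 2092 CPM to 1794 to 1849 CPM.

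Cytoskeletal genes outside the lists, chosen after their values were seen, also rose. ACTG1, gamma actin, was at 3167, 3080 and 3198 CPM with DMSO and 3830, 3612 and 3739 CPM with lenalidomide (log2 0.24, SE 0.034, edgeR adjusted p = 5.0e-07). ACTB, beta actin, rose by 0.17 (SE 0.035), with an adjusted p of 0.0634 without lenalidomide replicate 1. The groups of neither actin overlapped.

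Genes of cell growth were among those that fell. Over the 7 lists of the MYC growth programme (ribosome assembly, core MYC targets, nucleotide and polyamine synthesis, translation, both sets of ribosomal proteins and the respiratory chain), 28 of 256 tested genes fell and none rose, beside 0.805% of all genes tested. As with the matrix lists, earlier results of these data were known when these lists were chosen. The share over all genes was not matched for level. The change was negative in 228 of the 256, and the median log2 change was −0.08. Without 1 library, 10 (without lenalidomide replicate 1) to 26 (without lenalidomide replicate 3) fell, with 11 without lenalidomide replicate 2, 12 without DMSO replicate 1 and 14 without DMSO replicate 3, and none rose. Of 38 ribosome biogenesis genes, 11 fell, 34 had a negative change and the median was −0.13, and 11 also fell without lenalidomide replicate 3 (5 without lenalidomide replicate 1). LYAR, a nucleolar protein of ribosomal RNA processing, was at 93.0, 94.5 and 98.2 CPM with DMSO and 75.3, 73.1 and 78.7 CPM with lenalidomide (log2 −0.34, SE 0.057, edgeR adjusted p = 3.5e-05). NOP16, a nucleolar protein of large-subunit assembly, was at 60.6, 60.4 and 62.5 CPM and then 50.7, 45.6 and 46.2 CPM (log2 −0.36, SE 0.067, edgeR adjusted p = 0.00027). Neither gene's groups overlapped. DKC1, dyskerin, the pseudouridine synthase of small nucleolar and telomerase particles, was at 375, 384 and 382 CPM and then 327, 330 and 320 CPM (log2 −0.22, SE 0.041). NOLC1, a nucleolar partner of dyskerin, fell by 0.21 on the log2 scale (SE 0.041). These 4 passed in all 6 fits without 1 library. NPM1, the most abundant called member at 4049, 3907 and 3992 CPM with DMSO, had 3506, 3722 and 3648 CPM with lenalidomide (log2 −0.14, SE 0.034). The other 6 were DDX21, NCL, WDR12, POLR1B, NOP56 and FBL, with log2 changes from −0.23 for POLR1B to −0.14 for NCL. NPM1 and each of these 6 passed in 2 to 4 of the 6 fits, and the highest adjusted p among them was 0.336, for FBL without DMSO replicate 3.

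Of 38 core MYC targets tested, 6 fell, none rose and 36 had a negative change. HSPD1, the mitochondrial chaperonin, was at 2078, 2027 and 2092 CPM with DMSO and 1844, 1794 and 1849 CPM with lenalidomide (log2 −0.18, SE 0.035, edgeR adjusted p = 0.00074). ODC1, ornithine decarboxylase, the rate-limiting enzyme of polyamine synthesis, was at 731, 714 and 752 CPM and then 649, 653 and 663 CPM (log2 −0.16, SE 0.038), with an adjusted p of 0.0611 without lenalidomide replicate 1. The falls were small beside the levels. The groups were apart for both genes, but for HSPD1, named by p-value, separation was a condition of naming and adds no support. SRM, spermidine synthase, and PTMA, prothymosin alpha, fell by 0.16 and 0.12 on the log2 scale, and NPM1 and NCL complete the 6. SRM passed in 3 and PTMA in none of the 6 fits, with adjusted p up to 0.201 and 0.190. Of the list, 5 fell without lenalidomide replicate 3 and 3 without lenalidomide replicate 1.

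Among 32 genes of nucleotide, one-carbon and polyamine synthesis, 7 fell and 30 had a negative change. PSAT1, an enzyme of serine synthesis, was at 353, 349 and 359 CPM with DMSO and 306, 305 and 315 CPM with lenalidomide (log2 −0.20, SE 0.041, edgeR adjusted p = 0.0015) and passed in all 6 fits without 1 library. IMPDH2 and PAICS, enzymes of purine synthesis, fell by 0.17 and 0.14 on the log2 scale, and MTHFD2 and MTHFD1L, of the mitochondrial folate pathway, by 0.19 and 0.17. Those 4 passed in 3 or 4 of the 6 fits, with adjusted p up to 0.136, 0.145, 0.179 and 0.361 in the order named. Without lenalidomide replicate 3, 8 of the 32 fell, and without DMSO replicate 1, 3 fell.

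Of 38 translation factors and tRNA synthetases, 4 fell and 35 had a negative change: the synthetases LARS1, FARSB and TARS1 by 0.17, 0.18 and 0.13 on the log2 scale, and the release factor ETF1 by 0.14. They passed in 3, 2, 1 and 0 of the 6 fits, with adjusted p up to 0.185, 0.280, 0.252 and 0.187. Ribosomal proteins moved little. Of 43 cytosolic ribosomal proteins, 42 had a negative change with a median of −0.05, and RPL4 fell, by 0.13 on the log2 scale, in 2 of the 6 fits (adjusted p up to 0.130). Of 39 mitochondrial ribosomal proteins, 2 fell (MRPL3 and MRPS27, by 0.18 and 0.20), and of 35 nuclear-encoded respiratory chain genes 1 fell (CYC1, by 0.14). MRPL3, MRPS27 and CYC1 passed in 2, 1 and 1 of the 6 fits, with adjusted p up to 0.179, 0.186 and 0.244. Without lenalidomide replicate 3, 4 translation genes, 1 cytosolic and 1 mitochondrial ribosomal protein and 0 respiratory chain genes fell, and without lenalidomide replicate 1 none of these lists held a call.

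Of 24 heat shock and chaperone genes, 5 fell, none rose and all 24 had a negative change, with a median of −0.10 (3 fell without lenalidomide replicate 3). Over all genes tested, 0.805% fell and 50.2% had a positive change, shares not matched for level. Besides HSPD1, HSPA4L, a nucleotide exchange factor for HSP70, fell from 146, 143 and 137 CPM to 120, 122 and 122 CPM (log2 −0.23, SE 0.049). HSP90AB1, the constitutive cytosolic HSP90, fell from 2981, 3027 and 2950 CPM to 2698, 2581 and 2788 CPM (log2 −0.15, SE 0.035). The groups were separate in both, and both passed in all 6 fits without 1 library. CCT6A and TCP1, subunits of the TRiC chaperonin, fell by 0.13 each on the log2 scale and passed in 1 of the 6 fits (adjusted p up to 0.213 and 0.154). Among 25 genes of the integrated stress and unfolded protein responses, PSAT1 was the 1 call, while ATF4 had a log2 change of −0.13 (adjusted p = 0.0826) and HSPA5 of 0.12 (adjusted p = 0.0632).

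**Figure D3:**
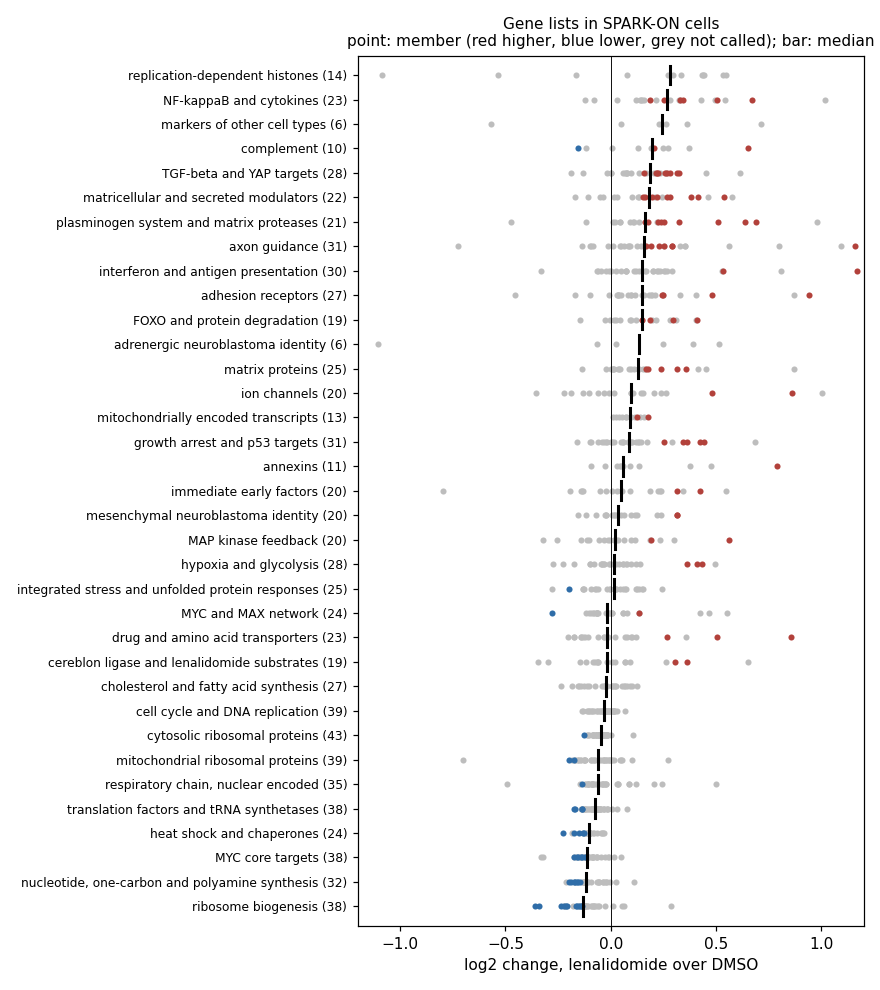
Each row is 1 of 35 gene lists, with the number of members tested in brackets, and each point is a member's log2 change with lenalidomide over DMSO (red called higher, blue called lower, grey not called). Black bars are list medians, in order from −0.13 for ribosome biogenesis to 0.28 for the histones, and 2 members lie beyond the axis at ±1.2.

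Outside the lists, the largest fall among genes above 5 CPM with separate groups was that of ARPIN, an inhibitor of the Arp2/3 actin-nucleating complex. It was at 49.5, 45.6 and 49.4 CPM with DMSO and 37.95, 31.3 and 35.3 CPM with lenalidomide (log2 −0.47, SE 0.077, edgeR adjusted p = 2.5e-05), and its exons overlap those of the read-through gene ARPIN-AP3S2. NFIX, a nuclear factor I transcription factor, was at 169, 179 and 170 CPM and then 153, 132 and 144 CPM (log2 −0.27, SE 0.049). Both passed in all 6 fits without 1 library. HMGB1, a chromatin protein, and LBR, the lamin B receptor, fell by 0.19 and 0.23 on the log2 scale and also passed in all 6. BEND3, DCLRE1C (Artemis, a nuclease of DNA end joining), LPL (lipoprotein lipase), SINHCAF, NAF1 (an assembly factor of the dyskerin particles), TANGO6 and CELSR2 had log2 changes between −0.44 and −0.32. They passed in 0 (NAF1) to 5 (CELSR2) of the 6 fits, with adjusted p up to 0.323, for LPL without lenalidomide replicate 1.

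The noncoding RNA MALAT1, which is retained in nuclear speckles, had the third-lowest change of all calls, −0.72 on the log2 scale (SE 0.092). It was named after its values were seen, because its groups overlapped: 706, 655 and 348 CPM with DMSO and 309, 415 and 307 CPM with lenalidomide. DMSO replicate 3 was low, below lenalidomide replicate 2. DESeq2 gave an adjusted p of 0.276 and edgeR with a robust spread 0.459. The widest log2 changes of all, 2.32 for CD34 and −1.87 for RGMA, came from genes with mean levels of 0.985 and 1.05 CPM, close to the level of 3 reads in the shallow library.

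The remaining lists held few calls. Of 27 cholesterol and fatty acid genes none was called by edgeR, although ELOVL6 had a log2 change of −0.24 (adjusted p = 0.0507), and 2 of the list fell without lenalidomide replicate 3. Of 30 interferon and antigen presentation genes, STAT2, a transcription factor of the interferon response, rose from 15.4, 15.1 and 15.6 CPM to 21.3, 22.8 and 23.0 CPM (log2 0.53, SE 0.11, edgeR adjusted p = 0.00078). HLA-F, a class I molecule with close paralogs, rose by 1.17 at a mean of 2.13 CPM and passed in 1 of the 6 fits (adjusted p up to 0.227), and 3 of the 30 rose without lenalidomide replicate 3. Of 14 replication-dependent histone genes, H1-4 fell with overlapping groups, from 4.41, 4.58 and 1.53 CPM to 0.624, 2.02 and 1.06 CPM, and passed in 3 of the 6 fits (adjusted p up to 0.270). None of the 14 rose, yet 9 had a positive change. The list median was 0.28 on the log2 scale, and 0.22 without lenalidomide replicate 3. All 13 mitochondrially encoded transcripts had positive changes, and MT-CO1 and MT-CYB rose by 0.18 and 0.12. Neither was called without lenalidomide replicate 3 (adjusted p = 0.136 and 0.222), the library with the highest mitochondrial share. The median log2 change of the 13 was 0.09 in SPARK-ON cells, 0.07 without that library, and 0.09 in control cells. Of 20 mesenchymal identity genes, FN1 and FOSL2 rose, and none of the 6 adrenergic genes tested was called.

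MYCN itself was slightly higher with lenalidomide. Its level was 2325, 2486 and 2250 CPM with DMSO and 2697, 2498 and 2557 CPM with lenalidomide (log2 0.14, SE 0.036, edgeR adjusted p = 0.023). The groups were separated by a narrow margin, between DMSO replicate 2 and lenalidomide replicate 2, and the call held in 3 of the 6 fits without 1 library, with an adjusted p of 0.282 without lenalidomide replicate 1. The counts do not separate the introduced n-Myc from the cell's own gene. MYC was at 3.60, 6.50 and 6.16 CPM with DMSO and 5.99, 7.70 and 8.63 CPM with lenalidomide, with overlapping groups (log2 0.42, SE 0.19, adjusted p = 0.289). MAX, the obligate partner, had a log2 change of −0.10 (SE 0.081, adjusted p = 0.611). Of 24 genes of the MYC and MAX network, MYCN was the 1 that rose and MXI1, a MAX partner that opposes MYC, the 1 that fell, from 61.9, 62.5 and 63.4 CPM to 52.2, 46.65 and 58.1 CPM (log2 −0.28, SE 0.068). MXI1 passed in 4 of the 6 fits, with an adjusted p of 0.217 without lenalidomide replicate 2.

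CRBN, the receptor of the drug, was at 279, 268 and 249 CPM with DMSO and 264, 294 and 276 CPM with lenalidomide, with overlapping groups (log2 0.07, SE 0.045, adjusted p = 0.506). Of 19 genes of the cereblon ligase and its lenalidomide substrates, the transcripts of 2 substrates rose. ZNF692 was at 29.2, 28.4 and 27.5 CPM and then 36.6, 38.7 and 32.8 CPM (log2 0.36, SE 0.084, edgeR adjusted p = 0.0056), with separate groups. IKZF1 was at 51.7, 37.6 and 37.0 CPM and then 55.9, 49.4 and 50.1 CPM (log2 0.31, SE 0.081), where DMSO replicate 1 lay above 2 of the 3 lenalidomide libraries. They passed in 4 and 3 of the 6 fits, with adjusted p of 0.106 for ZNF692 without lenalidomide replicate 2 and 0.313 for IKZF1 without lenalidomide replicate 1. Neither passed without lenalidomide replicate 1.

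Because n-Myc with MAX binds the E-box CACGTG, the promoters of the named genes were read for it. The motif is its own reverse complement, so 1 strand covers both. RefSeq's promoter table (GRCh38.p14, 250 bases before to 50 after each listed start, first start listed) matched 72 of the genes named by rule that rose or fell, and 5 of these windows held CACGTG: 3 of 30 genes that fell (NFIX, HSPD1 and BEND3) and 2 of 42 that rose (ABCA1 and KCNN4). Over all 27305 promoters of the table, 7.44% held it. The table matched 74.5% of all genes that rose and 80.5% of those that fell, so shares over the full sets were not compared. The 5 stretches below are the 100 bases that hold the motif, upstream of the start, 5′ to 3′ on the gene's strand with CACGTG in capitals. They are shown because they are the letters that n-Myc is known to read, and a match is a description of the sequence, not evidence of binding.
HSPD1, chr2:197500310-197500409, minus strand: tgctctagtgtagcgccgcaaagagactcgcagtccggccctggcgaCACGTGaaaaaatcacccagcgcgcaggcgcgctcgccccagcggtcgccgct
NFIX, chr19:12995231-12995330, plus strand: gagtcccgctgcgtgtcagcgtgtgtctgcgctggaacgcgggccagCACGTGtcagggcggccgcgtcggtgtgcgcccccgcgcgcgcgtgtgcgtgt
BEND3, chr6:107115516-107115615, minus strand: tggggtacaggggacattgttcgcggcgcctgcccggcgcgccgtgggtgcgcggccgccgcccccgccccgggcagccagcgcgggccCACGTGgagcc
ABCA1, chr9:104928250-104928349, minus strand: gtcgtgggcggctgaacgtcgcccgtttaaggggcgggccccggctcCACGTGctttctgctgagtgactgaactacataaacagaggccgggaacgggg
KCNN4, chr19:43781106-43781205, minus strand: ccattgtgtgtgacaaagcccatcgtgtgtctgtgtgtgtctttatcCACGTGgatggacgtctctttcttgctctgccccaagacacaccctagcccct
The first base of the motif lay 88 bases before the start in HSPD1, 197 in NFIX, 11 in BEND3, 147 in ABCA1 and 185 in KCNN4. HSPD1, NFIX and BEND3 each have more than 1 start listed. Windows with and without the motif occurred among genes that rose and among genes that fell, and those of DIO2, L1CAM and LYAR had none.

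The control line, n-Myc without SPARK-ON, gives what lenalidomide did without the construct, over 2 lenalidomide and 3 DMSO libraries fitted with the 6 in one 11-library model. Of the 263 genes that rose in SPARK-ON cells, 194 (73.8%) also had a positive change in control cells, where 49.4% of all genes did, with a median of 0.09 there against 0.31 in SPARK-ON cells. Of the 118 that fell, 69 (58.5%) were negative in control cells, where 50.1% of all genes were, with medians of −0.02 and −0.19. Since the SPARK-ON values chose these genes, their larger size in that line is partly a matter of choice. No gene of 16056 (0%) differed between the lines in its response by edgeR's interaction test, where the smallest adjusted p was 0.471 and 669 genes had an unadjusted p under 0.05. Leaving out 1 control library kept the calls at 0, but 633 to 1404 genes then had an unadjusted p under 0.05. The most came without control DMSO replicate 1, where the smallest edgeR adjusted p was 0.0948. A lack of calls in this test does not show that the lines responded alike. DESeq2 called 3 (FBXO32, IGFBP4 and GNAZ), and edgeR without a filter on low counts called 1 (GNAZ). FBXO32 had 181, 174 and 174 CPM with DMSO and 159 and 171 CPM with lenalidomide in control cells, and a difference of 0.52 (SE 0.11) between the lines on the log2 scale (edgeR adjusted p = 0.725). CDKN1A had 35.8, 31.1 and 35.1 CPM and then 26.0 and 31.5 CPM there, and a difference of 0.68 (SE 0.15, edgeR adjusted p = 0.725).

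Several genes that rose in SPARK-ON cells had positive changes in control cells as well, from other levels. L1CAM was at 0.651, 1.13 and 1.003 CPM with DMSO in control cells and 2.28 and 2.61 CPM with lenalidomide (log2 1.40, edgeR adjusted p = 0.0617), far below its level in SPARK-ON cells. CPA4 was at 3.42, 3.39 and 4.40 CPM and then 7.14 and 6.23 CPM (log2 0.82, adjusted p = 0.0832), and DIO2 at 21.1, 25.8 and 26.8 CPM and then 34.7 and 33.0 CPM (log2 0.46, adjusted p = 0.223). ZNF692 passed in control cells, with a log2 change of 0.62. For the growth lists the medians in control cells were −0.05 for ribosome biogenesis, −0.03 for core MYC targets, −0.01 for nucleotide, one-carbon and polyamine synthesis and 0.03 for heat shock and chaperones. They were −0.01 for translation, −0.03 and 0.01 for cytosolic and mitochondrial ribosomal proteins, and −0.05 for the respiratory chain (−0.06 in SPARK-ON cells). Among lists with rises, control medians (SPARK-ON in brackets) were 0.07 (0.13) for matrix proteins, 0.08 (0.18) for matricellular modulators and 0.08 (0.15) for adhesion. Others were 0.04 (0.16) for matrix proteases, 0.02 (0.16) for axon guidance, 0.03 (0.27) for NF-kappaB and 0.006 (0.19) for TGF-beta and YAP targets. Among the falls named above, LYAR, HSPD1 and NPM1 had log2 changes of 0.04, 0.09 and 0.05 there, and NOP16, DKC1, NOLC1, PSAT1 and IMPDH2 of −0.06, −0.10, −0.05, −0.11 and −0.10.

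**Figure D4:**
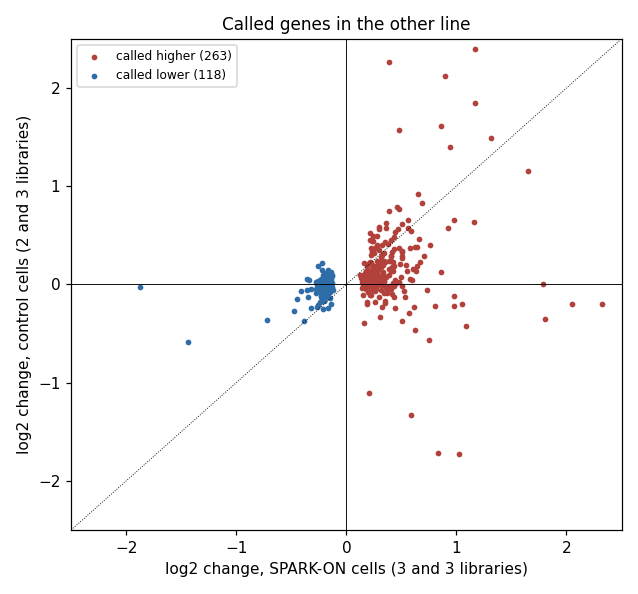
Each point is 1 of the 381 genes that rose (red) or fell (blue) in SPARK-ON cells, with its log2 change with lenalidomide over DMSO in SPARK-ON cells (3 and 3 libraries) against that in control cells (2 and 3 libraries). The dotted line marks equal change; 73.8% of the red points lie above zero on the control axis, 58.5% of the blue points below it, and 3 genes lie beyond the axis at ±2.5.

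The number of genes called turned on which libraries estimated the spread. The biological coefficient of variation was 4.71% among the 6 SPARK-ON libraries and 9.40% over 11 libraries of both lines. In the 11-library fit, 11 genes rose in SPARK-ON cells and 0 fell, with 860 at an unadjusted p under 0.05. The same fit called 7 genes in control cells, which had fewer libraries. All 11 genes called in SPARK-ON cells were among the 263: DIO2, ABCC3, C3, CPA4, L1CAM, FBXO32, PLK2, DKK1, ANXA8, PLAU and KCNJ2. LYAR and HSPD1, among the clearer falls, had adjusted p of 0.367 and 0.635 in that fit with log2 changes of −0.33 and −0.17, close to those above. Leaving out 1 library left 163 to 348 genes, the fewest without lenalidomide replicate 1 (124 higher and 39 lower) and the most without lenalidomide replicate 3. No call changed sign under any setting tried.

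**Figure D5:**
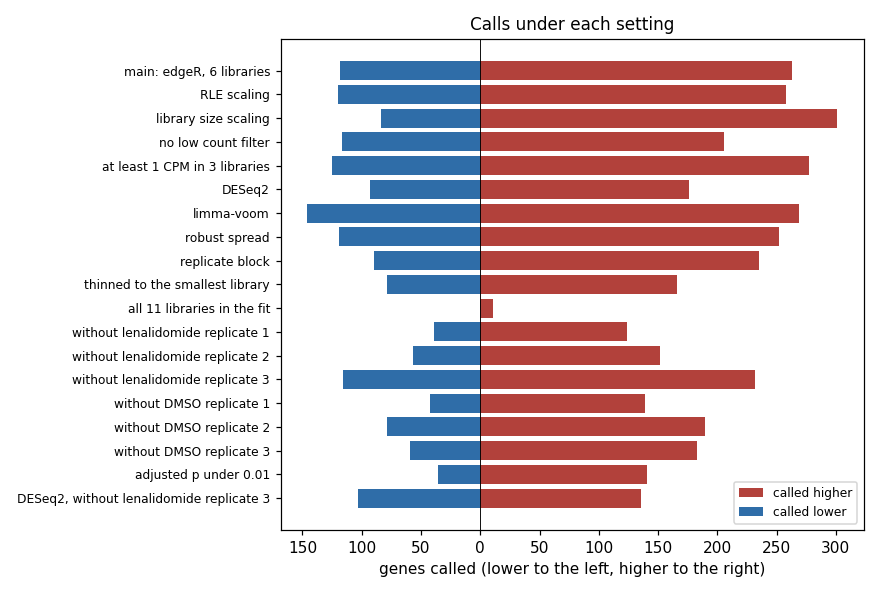
Bars give the number of genes higher (red, to the right of zero) and lower (blue, to the left) with lenalidomide in SPARK-ON cells under each setting. The fit of the 6 libraries gives 263 and 118, and the 11-library fit stands apart with 11 and 0.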

How the data were processed

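The authors deposited a matrix of raw read counts per gene, with Ensembl identifiers and no header beyond column names. The submitters' processing notes name FastQC, fastp, HTSeq, edgeR and the hg38 build. The aligner, annotation release and strand setting are not given in the sources used here, and without strand, reads of overlapping or antisense genes cannot be told apart. Each column used carries the name that 1 sample's label gives. The 3 columns whose names match no label were not used, and the baseline SH-EP samples were not analysed here.

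The 6 SPARK-ON columns were fitted alone in edgeR 4.0.16 (R 4.3.3): genes kept by filterByExpr (minimum count 10), TMM scaling, quasi-likelihood test of lenalidomide against DMSO, Benjamini-Hochberg adjustment over all genes. CPM (counts per 1000000 reads) use the TMM-scaled library size. SE was taken as the size of the log2 change over the square root of F. The difference between lines was tested as an interaction over 11 libraries. Replicates of a group differed by more than counting noise (chi-square per degree of freedom 2.42 to 3.31), so no library was counted as a duplicate. The script was tested on simulated data. Named genes were the 15 largest changes and 10 smallest p-values in each direction among calls with a mean of at least 5 CPM and separate groups, the 3 smallest p-values of each of 35 lists, and MYCN, MYC, MAX and CRBN; other list members called, and genes said to be chosen after their values were seen, were added. Members and lists were chosen with earlier results of these data known. Alternatives were other scalings, filters, tools (DESeq2 1.42.0, limma 3.58.1), a replicate block, thinning, each library left out and an 11-library fit. Some members of the lists are counted but not reported here by name.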

Additional observations from a re-analysis of the deposited data

How the results depend on the processing

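Against 263 genes higher with lenalidomide in SPARK-ON cells, thinning all libraries to the smallest gave 166, the 11-library fit 11, an adjusted p under 0.01 gave 141, and DESeq2 without lenalidomide replicate 3, an alternative added after the data were seen, gave 136. Against 118 lower, the 11-library fit gave 0, an adjusted p under 0.01 gave 36 and DESeq2 without lenalidomide replicate 3 gave 103. Leaving out each library in turn gave 124 to 232 higher and 39 to 116 lower. DESeq2 on all 6 libraries gave 176 higher and 93 lower, and called 253 of the 381 genes again. Genes whose response differed between lines numbered 0, 1 without the filter on low counts and 3 with DESeq2. With the replicate block, 235 genes were higher, 90 lower and 0 differed between lines. Over all genes, no pairing by number was seen: deviations from the group means of same-numbered libraries correlated at −0.0007, 0.0013 and 0.0152. Lenalidomide replicate 3 alone correlated best with its own number. A pairing limited to part of the genes could be missed by these correlations. Scaling by library size alone shifted the log2 changes of 172 genes by 0.0109 to 0.0137 and gave 301 higher and 84 lower (78.2% of calls higher, against 69.0%). Of 91 named genes called, 49 were called without each single library, and no named gene reversed under any setting. The shallow library, at 6614671 reads, limits what can be seen near 1 CPM.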
